A study of Danio rerio with 6 samples.

Results

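The genes described here encode the receptors for the main neurotransmitters: ligand-gated channels and metabotropic (G-protein-coupled) receptors for GABA, glycine, glutamate, acetylcholine, serotonin and dopamine. Members were picked by gene name alone, from the names used for GABA (*gabr*, *gabbr*), glycine (*glra*, *glrb*), glutamate (*gria*, *grik*, *grin1* to *grin3*, *grid*, *grm*), acetylcholine (*chrn*, *chrm*), serotonin (*htr*) and dopamine (*drd*) receptors. There were 125 members among the 23025 genes measured, and 104 of these passed the filter on low counts, against 20463 genes in all. The remaining 21 had total counts of 13 to 63 over all 6 libraries and were not tested. The names also took in 2 genes for proteins that interact with receptors and are not receptors themselves.

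Libraries were made from mRNA of hindbrains dissected from zebrafish embryos at 48 hpf, with 3 libraries from wildtype controls and 3 from *gas6* homozygous mutants. *gas6* encodes a secreted ligand of the TAM family of receptor tyrosine kinases. The mutant line derives from a CRISPR/Cas9 founder that passed on several alleles (um296, um297, um298 and um299), all of which shift the reading frame, and which of them the embryos carried is not given in the sources used here. Both genotypes carried the *olig2:EGFP* transgene, which marks motor neuron and oligodendrocyte precursors and guided the dissection. Each library was made from a pool of hindbrains, so p-values measure only the spread between pools. The comparison asks how the level of each receptor mRNA differed between mutants and controls.

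GABA and glycine open chloride channels, and AMPA, kainate and NMDA receptors are cation channels opened by glutamate. Each channel is built from several subunits encoded by different genes, whereas metabotropic receptors act more slowly through G proteins. In the embryonic hindbrain these receptors serve the circuits for swimming, startle and eye movement, and the muscle form of the nicotinic receptor lies on muscle fibers rather than neurons.

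Total counts ranged from 18376627 to 27025868 per library, and the members took 0.0417% to 0.0817% of them. The *gas6* transcript fell from 39.1 ± 3.26 to 5.01 ± 0.674 CPM (counts relative to the TMM-scaled library total; mean ± SD, n = 3), a log2 fold change of -2.97. Wildtype library 1 stood apart from the other controls on the second principal component. On the first, which separated the genotypes (74% of the variance), it was the control farthest from the mutants, at -70.2 against -47.2 and -48.8. It was the lowest of the 6 libraries for 62 of the 104 tested members (59.6%), against 28% of all genes tested. These shares are not directly comparable. More of the members than of all genes were higher in mutants (77.9% against 51.5%), which makes some control the lowest library more often. How much of the share of wildtype library 1 this accounts for was not tested. Counts of members are also given without wildtype library 1. The pan-neuronal and Hox markers of the labelled tissue were present in every library. Skeletal muscle genes were abundant in every library, at summed levels of 33390 to 66400 CPM, against 3787 to 4465 CPM for the pan-neuronal genes. Genes that define lens and photoreceptors were also present, mainly in the mutants, and their values are given after the receptors.

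More receptor genes were higher than lower in the mutants. At an adjusted p under 0.05 in edgeR's quasi-likelihood test, 49 of 104 tested members (47.1%) differed between genotypes, against 33.3% of all genes tested. Of these, 42 were up-regulated (40.4%, against 16.7% of all genes) and 7 were down-regulated (6.73%, against 16.6%). The median log2 fold change of the members was 0.44, and that of all genes was 0.02. Positive values mean higher in mutants here and throughout. An estimated change of more than 2-fold was found for 22 of the called members (21.2% of those tested, against 9.65% of all genes). Of these, 18 were higher (17.3%, against 6.06%) and 4 were lower (3.85%, against 3.59%). The call was against no change, and when the change was tested against 2-fold itself, 2 members passed. No share of all genes is given for that test. Without wildtype library 1 there were 42 of 107 tested members called, 35 up-regulated and 7 down-regulated, against 33.2% of all genes called. The median fell to 0.28, and 14 called members had an estimate over 2-fold, a count given without a share of all genes. Without *gas6* mutant library 1 there were 31 of 105 tested members called, 26 of them up-regulated, against 24.9% of all genes called. Leaving out *gas6* mutant library 2 gave 34 called of 109 tested members, against 22.5% of all genes called. Of the 34, 30 were up-regulated and 4 were down-regulated.

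**Figure D1:**
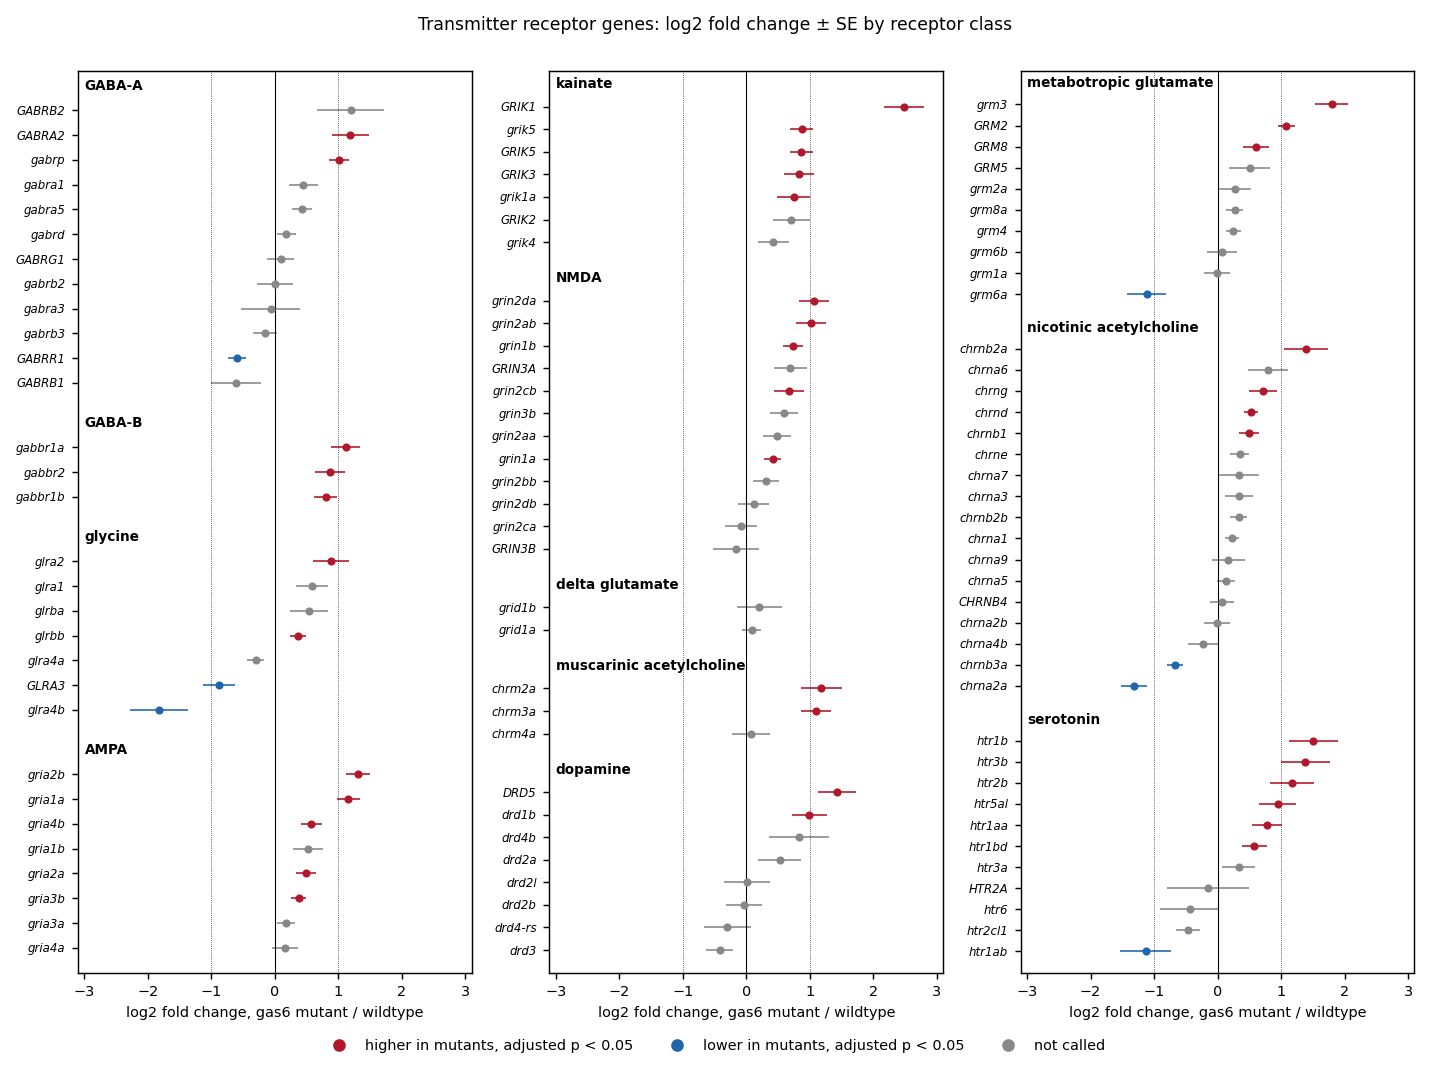
Log2 fold change of the tested members reported here (x axis, *gas6* mutant over wildtype; points are genes, bars are 1 SE and dotted lines mark 2-fold), arranged by receptor class, with red for genes called higher in mutants, blue for those called lower and gray for those not called. Most points lie to the right of 0, *GRIK1* lies farthest right at 2.49 and *glra4b* farthest left at -1.82.

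In every library the tested and untested members were also added up. Summed member levels were 463, 602 and 583 CPM in wildtype libraries 1 to 3 and 761, 707 and 732 CPM in mutant libraries 1 to 3, or 549 ± 75.3 against 733 ± 27 CPM (1.34-fold). The genotypes did not overlap, and the controls varied more among themselves because wildtype library 1 was low. For single members, all 3 mutants lay above all 3 controls in 55 cases (24.8% of all genes did so) and below them in 9 (24.2% of all genes), so that 64 of 104 (61.5%) did not overlap, against 49% of all genes. Among the 55 members that were not called, 39 were higher and 16 lower in mutants, and 13 had an unadjusted p under 0.05. No shares among all uncalled genes are given, so these counts cannot be set against all genes. Counts of called genes per class and list below, from the fit of all 6 libraries, stand beside 33.3% of all genes called, 16.7% up-regulated and 16.6% down-regulated. Counts with 1 library left out stand beside other shares of all genes called. These were 33.2%, 30.7% and 26.5% without wildtype libraries 1 to 3, and 24.9%, 22.5% and 26.9% without *gas6* mutant libraries 1 to 3. No shares of all genes by direction are given for these fits. The 33.3% was not exceeded by GABA-A (4 of 13 called) or dopamine receptor genes (2 of 8). Nor was it exceeded by neuronal nicotinic (3 of 12) or skeletal muscle genes (5 of 23). RNA from pooled tissue cannot tell fewer cells of a type from less RNA per cell, and this holds for each result that follows.

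**Figure D2:**
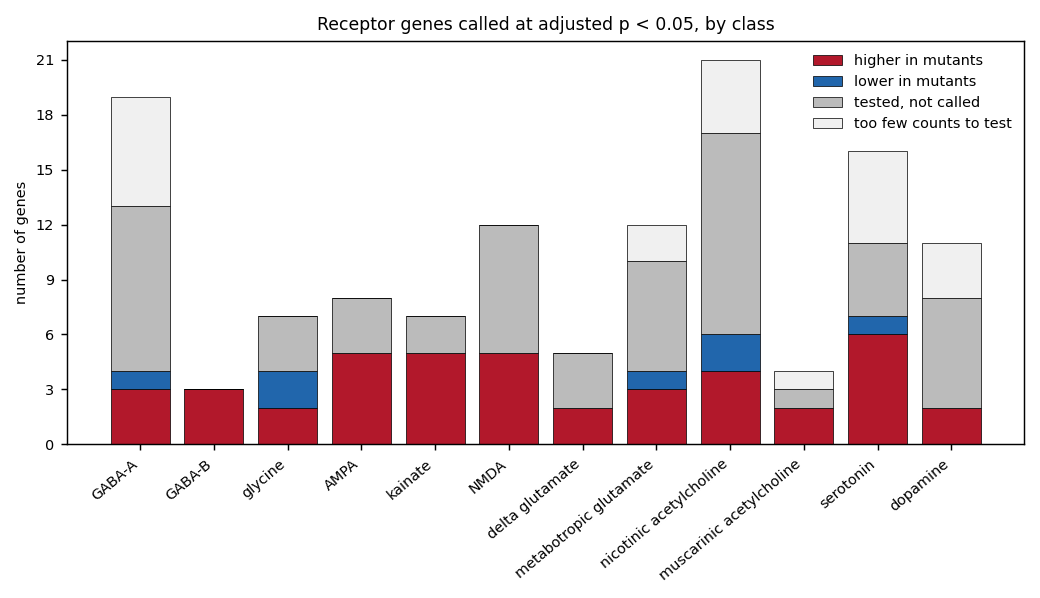
Number of genes (y axis) in each of the 12 receptor classes (x axis) that were called higher in mutants, called lower, tested without a call or too low to test, as stacked bars. AMPA, kainate and NMDA genes show 5 up-regulated members each with none lower, while glycine receptor genes show 2 in each direction.

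The receptors for glutamate that form channels changed in a single direction. Of 30 AMPA, kainate, NMDA and delta receptor genes tested, 16 were up-regulated, against 16.7% of all genes, and none was down-regulated, against 16.6%. A higher mean in mutants was found for 28 of the 30, against 51.5% of all genes. Receptors of this kind carry most fast excitation in the brain. Their summed level was 163, 243 and 239 CPM in wildtype libraries 1 to 3 and 346, 305 and 307 CPM in mutant libraries 1 to 3, a 1.49-fold higher mean with no overlap. Without wildtype library 1 there were 12 up-regulated genes, without *gas6* mutant library 1 there were 10 and without *gas6* mutant library 2 there were 11, with none down-regulated in any of these fits.

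All 8 AMPA receptor genes were higher in mutants and 5 of them were up-regulated (median log2 fold change 0.51), with 2 up-regulated without *gas6* mutant library 1 and 3 without *gas6* mutant library 2. *gria2b*, a gene for the subunit that in mammals keeps the channel from passing calcium, stood at 5.88, 10.4 and 10.7 CPM in wildtype libraries 1 to 3 and at 24.2, 22.2 and 20.2 CPM in mutant libraries 1 to 3. The lowest mutant was well above the highest control. Its log2 fold change was 1.30 (SE 0.191, adjusted p = 0.000364). Its paralog *gria2a* was the AMPA gene with the highest level in CPM, at 24.0, 36.5 and 35.5 CPM in controls and 50.6, 46.0 and 38.8 CPM in mutants. The third mutant library was only a little above the second control, and the log2 fold change was 0.50 (SE 0.157, adjusted p = 0.0291). *gria1a*, for another core subunit, was at 3.92, 6.26 and 6.99 CPM in controls and at 13.2, 13.1 and 12.09 CPM in mutants. It rose by 1.16 on the log2 scale (SE 0.187, adjusted p = 0.000726), with every mutant clear of every control. Within the class the mix shifted: *gria2b* made up 9.78% ± 1.28 of AMPA counts in controls and 16.1% ± 0.252 in mutants, and *gria1a* 6.24% ± 0.661 and 9.28% ± 0.483. These shares do not depend on how the libraries are scaled. The other called genes were *gria3b* (log2 fold change 0.38) and *gria4b* (0.57), and the uncalled *gria1b*, *gria3a* and *gria4a* had 0.52, 0.18 and 0.16. On leaving out each of the 6 libraries in turn, the call held 3 times for *gria2a*, 2 times for *gria3b* and 5 times for *gria4b*, with adjusted p up to 0.105 and 0.0749 for *gria2a* and *gria4b* without *gas6* mutant library 1, and 0.157 for *gria3b* when libraries were scaled on pan-neuronal genes.

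Of the 7 kainate receptor genes 5 were up-regulated, 3 without *gas6* mutant library 2 or 3, and they had the largest single change. *GRIK1*, written in upper case in the annotation of the table, encodes a subunit of the low-affinity group. It had only 8, 5 and 10 counts in wildtype libraries 1 to 3 and 41, 56 and 49 counts in mutant libraries 1 to 3. This corresponds to 0.364, 0.210 and 0.466 CPM against 2.08, 2.00 and 1.77 CPM. Its log2 fold change was 2.49 (SE 0.322, adjusted p = 0.000158), the largest of all members, and *GRIK1* grew from 1.94% ± 0.954 to 5.65% ± 0.337 of kainate receptor counts. A second row of the table, *grik1a*, rose by 0.74 but lost its call without any 1 of the 6 libraries (adjusted p up to 0.127 without *gas6* mutant library 3). *grik5* and *GRIK5* are separate rows for the high-affinity subunit, which in mammals must join a low-affinity subunit to form a channel. *grik5* was at 4.05, 6.72 and 5.41 CPM in controls and 10.8, 9.08 and 9.85 CPM in mutants, without overlap, and rose by 0.87 (SE 0.182, adjusted p = 0.00352). *GRIK5* rose by 0.87 too (adjusted p = 0.00329), from 4.25 ± 0.822 to 7.77 ± 0.803 CPM. The remaining called gene was *GRIK3* (0.83), whose call held in 4 of 6 fits with 1 library left out and whose adjusted p was 0.0557 without *gas6* mutant library 2. *GRIK2* and *grik4* were higher by 0.71 and 0.43 without a call.

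For NMDA receptors, which need glutamate together with glycine or D-serine and a depolarized membrane to open, 5 of 12 genes were up-regulated and none was down-regulated (median 0.54). Both genes for GluN1, the subunit that every NMDA receptor contains, were higher. *grin1a* was at 41.0, 56.8 and 54.9 CPM in controls and 75.8, 62.8 and 65.6 CPM in mutants. The groups did not overlap, and the log2 fold change of 0.42 (SE 0.132) had an adjusted p of 0.0289. That of *grin1b* was 0.74 (adjusted p = 0.0046), from 11.9 ± 2.78 to 19.8 ± 1.08 CPM. Among 7 genes for the glutamate-binding GluN2 subunits, 3 were up-regulated. *grin2da*, for GluN2D, which in mammals is most abundant early in development and in the brain stem, was at 1.69, 3.23 and 2.89 CPM in controls and 5.37, 4.79 and 6.26 CPM in mutants. All mutants exceeded all controls, and the log2 fold change was 1.07 (SE 0.232, adjusted p = 0.0044). *grin2ab*, for GluN2A, rose by 1.03 (adjusted p = 0.00621) and *grin2cb* by 0.67. The genes *grin2aa*, *grin2bb*, *grin2ca* and *grin2db* had log2 fold changes between -0.09 and 0.48 without a call. None of the 3 rows for GluN3 was called: *GRIN3A* and *grin3b* had 0.69 and 0.60 with adjusted p of 0.0578 and 0.0549, and *GRIN3B* had -0.16. With 1 library left out, the call for *grin1a* held in 3 of 6 fits (adjusted p up to 0.113, without *gas6* mutant library 1) and that for *grin2cb* in 2 (up to 0.138, without *gas6* mutant library 2). Without wildtype library 1 or *gas6* mutant library 1, 3 NMDA genes were up-regulated, and without wildtype library 1 the median was 0.33.

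Of the delta receptors, which are related to the other glutamate receptor channels by sequence, *grid1a* was at 4.97, 5.97 and 5.64 CPM in controls and 5.68, 5.79 and 6.12 CPM in mutants (log2 fold change 0.09, adjusted p = 0.694), and *grid1b* had 0.20 (adjusted p = 0.687). The groups overlapped for both genes. Of all 3 delta receptor genes tested, 1 was up-regulated and none was down-regulated, so the genes named here do not stand for the whole set.

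**Figure D3:**
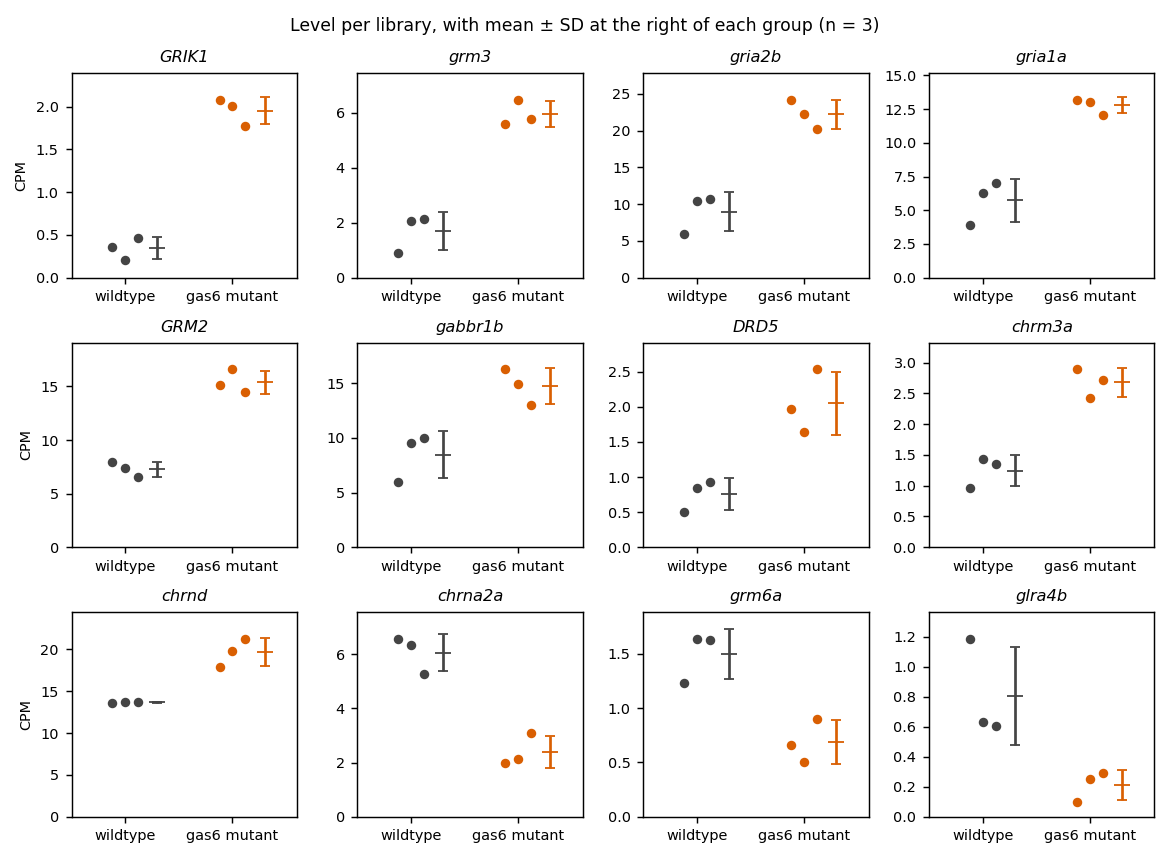
CPM of 12 members, 9 that rose and 3 that fell, in the 3 wildtype and the 3 *gas6* mutant libraries (linear y axis from 0, 1 point per library, mean ± SD at the right of each group). For *GRIK1* the controls lie between 0.210 and 0.466 CPM and the mutants between 1.77 and 2.08 CPM, and for *chrna2a* the order is turned, with controls at 5.27 CPM or more and mutants at 3.08 CPM or less.

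Of the 4 metabotropic glutamate receptor genes that were called, 2 belong to group II, whose receptors lower cyclic AMP and act largely as presynaptic brakes, and both were up-regulated. *grm3* was at 0.911, 2.06 and 2.14 CPM in controls and 5.58, 6.47 and 5.79 CPM in mutants. The lowest mutant was above the highest control by a wide margin, with a log2 fold change of 1.80 (SE 0.258, adjusted p = 0.000314). *GRM2* was at 7.93, 7.39 and 6.53 CPM in controls and 15.11, 16.6 and 14.5 CPM in mutants, again without overlap. Its log2 fold change was 1.08 (SE 0.133), with the smallest adjusted p of all members, 0.000112. Together with *grm2a*, which had 0.27 and was not called, the group had a summed level of 11.3 ± 1.26 CPM in controls and 24.2 ± 1.67 CPM in mutants (2.14-fold). *grm3* grew from 3.68% ± 1.3 to 9.27% ± 0.885 and *GRM2* from 16.1% ± 2.64 to 24.0% ± 1.87 of the counts of all metabotropic glutamate receptors. In group I, whose receptors raise intracellular calcium, neither tested gene was called (*grm1a* -0.01, *GRM5* 0.50).

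Group III receptors also lower cyclic AMP, and here 1 of 5 tested genes was up-regulated and 1 was down-regulated. *grm6a*, a gene for the receptor by which retinal ON bipolar cells sense glutamate, was at 1.23, 1.64 and 1.63 CPM in controls and 0.659, 0.501 and 0.905 CPM in mutants. Every mutant was below every control, and the log2 fold change was -1.12 (SE 0.304, adjusted p = 0.0145). The call did not hold without *gas6* mutant library 2 (adjusted p = 0.0746). Its paralog *grm6b* had 0.06 with overlapping groups. *GRM8* rose by 0.60, but its call held in only 1 of the 6 fits with a library left out, with an adjusted p up to 0.139 without wildtype library 3. *grm4* had the highest level in CPM of these receptors, 14.3, 16.1 and 16.6 CPM in controls and 20.2, 17.2 and 18.4 CPM in mutants, and did not pass the test (log2 fold change 0.25, adjusted p = 0.133).

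GABA-B receptors, the metabotropic GABA receptors, work as dimers of a GABA-binding and a G-protein-coupling subunit. All 3 of their genes were up-regulated. *gabbr1b* was at 5.97, 9.49 and 9.98 CPM in controls and 16.3, 14.98 and 13.0 CPM in mutants. The groups did not overlap (log2 fold change 0.80, SE 0.182, adjusted p = 0.00576). *gabbr1a*, the other gene for the GABA-binding subunit, was at 1.18, 1.97 and 1.45 CPM in controls and 3.40, 3.18 and 3.48 CPM in mutants. Here the lowest mutant was well above the highest control, and *gabbr1a* rose by 1.12 (SE 0.228, adjusted p = 0.003). *gabbr2*, for the coupling subunit, rose by 0.87 (adjusted p = 0.0148), from 2.53 ± 0.866 to 4.65 ± 0.269 CPM. The shares of the genes within the class moved little, *gabbr2* taking 19.8% ± 1.99 of the counts in controls and 20.5% ± 0.489 in mutants. All 3 calls held in each of the 11 other fits that were run, 5 with another setting and 6 with 1 library left out.

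GABA-A receptors are chloride channels of 5 subunits, usually of alpha, beta and gamma type. Of 19 genes 13 were tested, 3 were up-regulated and 1 was down-regulated (median 0.18). With 1 library left out, the median lay between 0.11 (without wildtype library 1, with 2 down-regulated) and 0.43 (without wildtype library 2, with 5 up-regulated), and 2 genes were up-regulated without *gas6* mutant library 1 or 3. *gabra5* had the highest level in CPM, 8.52, 12.9 and 11.5 CPM in controls and 16.2, 14.0 and 14.4 CPM in mutants. The groups did not overlap, but the log2 fold change of 0.43 (SE 0.156) had an adjusted p of 0.0501. It passed under DESeq2 (0.0461), under upper quartile scaling (0.0397) and without wildtype library 2 (0.0235). *GABRA2*, for another alpha subunit, was at 0.683, 0.966 and 0.606 CPM in controls and 1.98, 1.90 and 1.34 CPM in mutants. It rose by 1.19 (SE 0.294, adjusted p = 0.00893) with no overlap. *gabrp*, for the pi subunit, was at 3.33, 3.49 and 3.92 CPM in controls and 6.997, 7.87 and 6.73 CPM in mutants. The 3 controls lay close together, as did the 3 mutants, and the log2 fold change was 1.01 (SE 0.161, adjusted p = 0.000651). None of the 4 beta subunit rows was called, and their summed level was 7.39 ± 0.794 CPM in controls and 6.91 ± 1.33 CPM in mutants.

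*GABRR1*, for a rho subunit of a GABA channel type best known from the retina, was the GABA-A gene that fell. It was at 8.43, 7.23 and 7.46 CPM in controls and at 5.22, 5.08 and 4.995 CPM in mutants, without overlap (log2 fold change -0.60, adjusted p = 0.00885). Its part of the GABA-A counts went from 13.3% ± 3.88 to 6.68% ± 0.234. The other 4 rho genes were too low to test.

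Glycine receptors, the main inhibitory channels of hindbrain and spinal cord at this age, changed in both directions, with 2 genes up-regulated and 2 down-regulated of 7. With 1 library left out, 0 to 2 were up-regulated (0 without wildtype library 3, *gas6* mutant library 1 or *gas6* mutant library 3, and 1 without wildtype library 1 or *gas6* mutant library 2) and 1 to 3 were down-regulated (3 without *gas6* mutant library 3, and 1 without wildtype library 2, *gas6* mutant library 1 or *gas6* mutant library 2). *glra4b*, for an alpha subunit, had 26, 15 and 13 counts in controls and 2, 7 and 8 counts in mutants, or 1.18, 0.630 and 0.606 CPM against 0.101, 0.250 and 0.290 CPM. The highest mutant was below the lowest control, and *glra4b* had the largest fall of all members (log2 fold change -1.82, SE 0.455, adjusted p = 0.00931). *GLRA3* fell by 0.88 on the log2 scale, from 2.53 ± 0.398 to 1.37 ± 0.362 CPM, but its call held in only 3 of 6 fits with 1 library left out (adjusted p up to 0.0926, without *gas6* mutant library 2). *glra2*, for the alpha subunit that in mammals prevails before birth, rose by 0.89, and its call held in 2 of the 6 (adjusted p up to 0.113, without wildtype library 3). *glrbb*, the gene mutated in the zebrafish line *bandoneon*, encodes the beta subunit that anchors the receptor to gephyrin. It was at 19.1, 24.1 and 21.3 CPM in controls and 29.5, 25.2 and 28.2 CPM in mutants. The groups did not overlap, with a log2 fold change of 0.36 (SE 0.12, adjusted p = 0.0353) that passed in 1 of 6 fits with a library left out and not when libraries were scaled on pan-neuronal genes (0.179). The 5 alpha subunit genes together had 30.3 ± 2.09 CPM in controls and 29.4 ± 3.69 CPM in mutants. *glra4a*, with 35.9% ± 4.65 of the class in controls and 26.0% ± 2.84 in mutants, had a log2 fold change of -0.30 (adjusted p = 0.103).

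**Figure D4:**
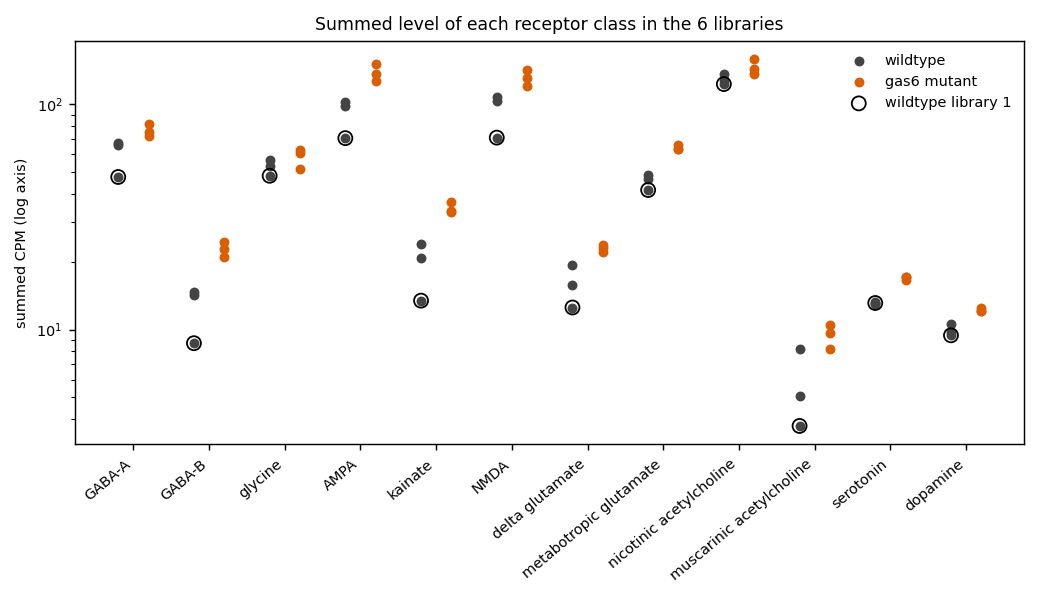
Summed CPM of all members of each receptor class (y axis, log scale) in each library, colored by genotype, with wildtype library 1 circled. AMPA receptor sums are 70.7 to 102 CPM in controls and 127 to 151 CPM in mutants, GABA-B sums are 8.70 to 14.7 CPM and 20.9 to 24.6 CPM, and the glycine, nicotinic and muscarinic sums overlap.

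The nicotinic acetylcholine receptor genes fall into a muscle set and a neuronal set. For the muscle set, 5 of 6 genes could be tested and 3 of them were up-regulated (1 without wildtype library 3 or *gas6* mutant library 2). In all 5 the mutants lay above the controls, as they did in 24.8% of all genes. For *chrna1* this was nearly a tie, with mutant library 1 at 28.24 CPM and wildtype library 2 at 28.23 CPM. *chrnd*, the gene mutated in the zebrafish line *sofa potato*, was at 13.6, 13.7 and 13.8 CPM in controls and 17.9, 19.8 and 21.3 CPM in mutants. The controls were nearly equal, and *chrnd* rose by 0.52 (SE 0.115, adjusted p = 0.00473). *chrnb1* was at 5.97, 7.23 and 6.76 CPM in controls and 7.76, 10.1 and 10.1 CPM in mutants (log2 fold change 0.49, SE 0.157, adjusted p = 0.0302). *chrng*, for the subunit that in mammals marks the fetal receptor, was at 2.095, 2.69 and 1.73 CPM in controls and 3.498, 4.11 and 3.11 CPM in mutants (0.72, SE 0.22, adjusted p = 0.0258). The lowest mutant was not far above the highest control in both genes, and with 1 library left out the calls held in 2 of 6 fits for *chrnb1* and 3 for *chrng* (adjusted p up to 0.123 and 0.117, both without *gas6* mutant library 2). *chrne*, which replaces *chrng* in adult mammals, was at 15.3, 18.9 and 18.5 CPM in controls and 19.3, 20.8 and 26.6 CPM in mutants (0.35, adjusted p = 0.0821). *chrna1*, which encodes the acetylcholine-binding subunit, was at 27.2, 28.2 and 26.1 CPM in controls and 28.2, 31.5 and 35.5 CPM in mutants (0.23, adjusted p = 0.142). Neither passed the test, and *chrnb1l* was too low to test. Of 23 skeletal muscle genes tested, 3 were up-regulated and 2 down-regulated, with summed levels of 43260 to 45310 CPM in controls and 33390, 39250 and 66400 CPM in mutant libraries 1 to 3. Mutant library 3 was the highest of the 6 for this sum and for each tested muscle receptor gene except *chrng*, whereas in mutant libraries 1 and 2 the sum was lower and *chrnd* higher than in the controls. The part of muscle tissue in these differences was not tested.

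The neuronal nicotinic set contained 2 of the 7 members that fell, and its sum was 61.9 ± 3.91 CPM in controls and 59.5 ± 2.16 CPM in mutants. *chrna2a*, for a ligand-binding alpha subunit, was at 6.56, 6.34 and 5.27 CPM in controls and 1.98, 2.15 and 3.08 CPM in mutants. The groups were far apart, with a log2 fold change of -1.32 (SE 0.205, adjusted p = 0.000535), and the share of *chrna2a* in nicotinic counts dropped from 4.69% ± 0.618 to 1.63% ± 0.271. *chrna2b*, its paralog, had -0.01. *chrnb3a*, for an accessory beta subunit, was at 15.2, 14.6 and 15.3 CPM in controls and 10.4, 9.58 and 8.36 CPM in mutants, and its log2 fold change was -0.67 (SE 0.128, adjusted p = 0.00205). Both falls held in each of the 11 other fits. *chrnb2a* went the other way, at 0.273, 0.462 and 0.466 CPM in controls and 1.32, 0.822 and 1.09 CPM in mutants. It rose by 1.39 (SE 0.352, adjusted p = 0.00997) at a low level. The 9 other tested genes, with *chrna3*, *chrna4b*, *chrna5*, *chrna7*, *chrnb2b* and *CHRNB4* among them, were not called and had log2 fold changes between -0.23 and 0.79.

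Of the muscarinic receptors, which are metabotropic, 3 of 4 genes were tested and 2 were up-regulated. *chrm2a*, for a receptor that lowers cyclic AMP, was at 0.820, 2.73 and 1.49 CPM in controls and 4.16, 3.33 and 4.13 CPM in mutants. The controls spread widely, and wildtype library 2 came close to mutant library 2. The log2 fold change was 1.18 (SE 0.322, adjusted p = 0.0145). *chrm3a*, for a receptor that raises intracellular calcium, was at 0.957, 1.43 and 1.35 CPM in controls and 2.89, 2.43 and 2.72 CPM in mutants, with a log2 fold change of 1.09 (SE 0.234, adjusted p = 0.00402) and no overlap. *chrm4a* had 0.07 with overlapping groups, and its share of the class was 42.9% ± 2.63 in controls and 27.8% ± 1.56 in mutants.

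Serotonin receptor genes were expressed at low levels, and 6 of 11 tested genes were up-regulated with 1 down-regulated. All are metabotropic except *htr3a* and *htr3b*, which encode a serotonin-gated channel. *htr1b*, for a receptor that lowers cyclic AMP and is known as a presynaptic autoreceptor, had 6, 13 and 4 counts in controls and 17, 29 and 28 counts in mutants, or 0.273, 0.546 and 0.186 CPM against 0.862, 1.04 and 1.01 CPM. It rose by 1.51 (SE 0.388, adjusted p = 0.011), and no mutant reached down to a control. The channel subunit gene *htr3b* was at 0.410, 0.462 and 1.03 CPM in controls and 2.33, 1.39 and 1.30 CPM in mutants. Its log2 fold change of 1.38 (SE 0.383, adjusted p = 0.0156) did not pass without wildtype library 1 (0.0538) or without *gas6* mutant library 1 (0.0649). *htr2b*, for a receptor that raises intracellular calcium, was at 0.410, 0.420 and 0.280 CPM in controls and 1.01, 0.679 and 0.869 CPM in mutants (1.17, SE 0.352, adjusted p = 0.0231), and did not pass under DESeq2 (0.0919) or without wildtype library 3 (0.0903), *gas6* mutant library 1 (0.0794) or *gas6* mutant library 3 (0.0644). The number of up-regulated serotonin receptor genes was 5 without wildtype library 1, 3 without wildtype library 2, *gas6* mutant library 2 or *gas6* mutant library 3, 2 without wildtype library 3 and 1 without *gas6* mutant library 1. Smaller rises were those of *htr1aa* (0.78), *htr1bd* (0.58) and *htr5al* (0.95), with adjusted p up to 0.0936, 0.13 and 0.105 on leaving out 1 library (wildtype library 3, *gas6* mutant library 2 and wildtype library 3).

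*htr1ab*, the paralog of *htr1aa*, was the serotonin receptor gene that fell. Its counts were 17, 27 and 10 in controls and 9, 8 and 10 in mutants, and its levels were 0.774, 1.13 and 0.466 CPM against 0.456, 0.286 and 0.362 CPM. The third control nearly met the first mutant. The log2 fold change of -1.13 (SE 0.408) had an adjusted p of 0.0498, which rose to 0.212 without wildtype library 2 and passed in only 1 of the 6 fits with a library left out. *htr2cl1*, the serotonin receptor gene with the highest level in CPM, was at 3.01, 3.36 and 3.26 CPM in controls and 2.18, 2.43 and 2.32 CPM in mutants. The groups did not overlap, but the log2 fold change of -0.47 (SE 0.187, adjusted p = 0.0717) passed only when libraries were scaled on pan-neuronal genes (0.0352), among the 11 other fits.

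For dopamine receptors, both tested genes of the D1-like group, which raises cyclic AMP, were up-regulated, and none of 6 genes of the D2-like group, which lowers it, was called. *DRD5* was at 0.501, 0.840 and 0.932 CPM in controls and 1.98, 1.64 and 2.53 CPM in mutants. The groups were clearly separate, with a log2 fold change of 1.43 (SE 0.299, adjusted p = 0.00351). The count of up-regulated dopamine receptor genes was 3 without wildtype library 1 or 2. The D2-like genes *drd2a* and *drd4b* were each called, as higher in mutants, in 1 fit with a library left out (adjusted p = 0.0361 and 0.0269). *drd1b* rose by 0.99 (adjusted p = 0.0157), from 1.01 ± 0.322 to 2.02 ± 0.139 CPM. In the D2-like group *drd3* had the highest level in CPM, at 4.15, 3.61 and 3.45 CPM in controls and 1.98, 3.33 and 2.97 CPM in mutants (log2 fold change -0.42, SE 0.216, adjusted p = 0.154). Its share of dopamine receptor counts went from 37.8% to 22.6%, and *drd2a*, *drd2b*, *drd2l*, *drd4-rs* and *drd4b* had log2 fold changes between -0.30 and 0.83. Whether the D1-like and D2-like groups differed from each other was not tested. Of the untested genes, *drd6b* had 0 counts in every control and 4, 8 and 5 counts in the mutants.

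Proteins that place or tune these receptors were read from a separate list, of which 48 genes were tested, 17 were called, 15 of them up-regulated and 2 down-regulated (median 0.33), beside 33.3% of all genes called, 16.7% up-regulated and 16.6% down-regulated. *cnih2*, for an auxiliary subunit of AMPA receptors, was at 2.41, 3.32 and 2.84 CPM in controls and 9.63, 8.87 and 9.01 CPM in mutants. This was the largest rise in the list (log2 fold change 1.68, SE 0.167, adjusted p = 2.59e-05), and its relative *cnih3* fell by 0.79 (adjusted p = 0.00741), from 6.49 ± 0.387 to 3.72 ± 0.895 CPM. *cacng7a*, for another AMPA receptor auxiliary subunit, rose by 1.27 (adjusted p = 0.00442), and *kctd8*, for an auxiliary subunit of GABA-B receptors, rose by 1.33 (adjusted p = 0.0193) and did not pass without *gas6* mutant library 2 (0.0743) or 3 (0.0596). Gephyrin holds glycine and GABA-A receptors at synapses. Its gene *gphnb* rose by 0.66 (adjusted p = 0.00173), from 16.3 ± 1.58 to 25.7 ± 2.48 CPM, while *gphna* had 0.08 (adjusted p = 0.589). *agrn*, whose product agrin gathers nicotinic receptors at the muscle synapse, fell by 0.40 (adjusted p = 0.0151) and did not pass without wildtype library 3 (0.0689), *gas6* mutant library 1 (0.0665) or *gas6* mutant library 2 (0.0532). *rapsn*, for the scaffold under the muscle receptor, had 0.32 (adjusted p = 0.303) with overlapping groups.

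Markers of other cells and regions also differed between genotypes, some lists being higher and some lower in the mutants. All 15 tested lens genes were up-regulated, with summed levels of 2.095 to 42.4 CPM in controls and 523 to 1235 CPM in mutants. Of 9 tested photoreceptor genes 6 were up-regulated (6.01 to 10.5 CPM against 46.4 to 79.2 CPM), and the rod opsin gene *rho* had 0 counts in every control and 58, 62 and 36 counts in mutants. Among inner retina genes, 12 of 20 were up-regulated and 1 down-regulated (579 to 587 CPM against 669 to 741 CPM), and among forebrain genes 19 of 27 were up-regulated and 1 down-regulated (527 to 590 CPM against 653 to 721 CPM). In the controls 10 of 19 lens genes, 14 of 19 photoreceptor genes, 3 of 20 inner retina genes and 7 of 28 forebrain genes were under 1 CPM in every library. Many inner retina and forebrain genes were thus detected in control libraries as well. The tissue from which their RNA came was not tested. Genes of neural progenitors were lower, with 22 of 24 down-regulated (5802 to 6325 CPM against 3029 to 3335 CPM), as were Hox genes of groups 1 to 4, with 8 of 12 down-regulated (1161 to 1400 CPM against 959 to 1054 CPM). The summed level of pan-neuronal genes differed less, at 3787 to 3996 CPM against 3928 to 4465 CPM, a ratio of 1.09. By gene, 12 of 22 were called, 8 up-regulated and 4 down-regulated, against 33.3% of all genes called. Of the 22, 16 were higher in mutants, as were 81 of the 104 tested members. The median log2 fold change was 0.25 for the pan-neuronal genes and 0.44 for the members. Scaling the libraries on the pan-neuronal genes moved the median of all genes to -0.11 and left the members at a median of 0.32. With this scaling 37 members were called, 29 of them up-regulated and 8 down-regulated, against 33.3% of all genes called. The part of eye, forebrain and progenitor cells in the receptor differences was not tested.

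**Figure D5:**
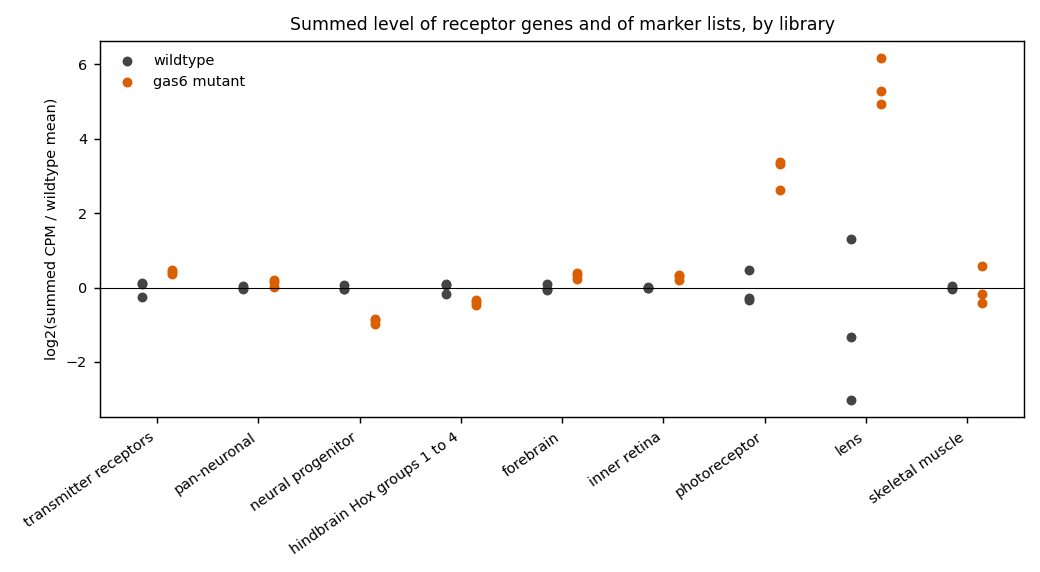
Summed CPM of the receptor genes and of each marker list in each library, as log2 of its ratio to the wildtype mean (y axis; 1 point per library, colored by genotype). Lens and photoreceptor genes lie far above the controls in all 3 mutants, neural progenitor and Hox genes lie below them, and the skeletal muscle sum lies on both sides of 0.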

How the data were processed

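Pools of 48 hpf hindbrains gave 3 stranded mRNA libraries per genotype, grouped by title. Reads were processed by the authors in the Dolphin web interface, and the submitters' notes name FastQC, RSEM 1.2.28 and DESeq2, with GRCz10 and danRer7 as builds whose roles are not given. The authors deposited estimated counts per gene name, not normalized, with fractions where reads fit several genes: 45.6% of all genes, and 75% of tested members, had whole counts in all libraries. Genes with near-identical copies and rows that differ only in letter case are therefore uncertain. The deposited table also holds the authors' fold change, log2 fold change and adjusted p-value, which were not used.

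Counts were rounded, filtered with filterByExpr (minimum count 10, minimum total 15) in edgeR 4.0.16 under R 4.3.3, scaled by TMM and compared by genotype, without covariates, in glmQLFit and glmQLFTest. P-values were adjusted by Benjamini-Hochberg over 20463 genes, and members were called at 0.05. The study states a 2-fold criterion, so calls with an estimated change over 2-fold are also given. CPM use TMM-scaled totals. At 3 libraries per genotype log2 fold changes had a median SE of 0.154, and biological variation between pools was 12.5%. No libraries of a genotype were duplicates (chi-square of 6.99 or more per degree of freedom).

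Members, classes and gene lists were chosen with earlier results of these data known. Named members were those called with a change over 2-fold (at most the 20 largest), the gene of highest level and of smallest p in each class, and the muscle nicotinic subunits. Some members, though counted, are not reported here. The other genes named with values were chosen after their values were seen. Of 248 list genes 222 matched a name in the table. Alternatives were DESeq2 1.42.0, upper quartile and pan-neuronal scaling, no filter, a replicate block, leaving out each library, a limit of 0.01, a test against a 2-fold change (glmTreat) and members with whole counts only. Leaving out the 2 interacting proteins was added after seeing the data. The tests were tried on simulated counts first.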

Additional observations from a re-analysis of the deposited data

How the results depend on the processing

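The number of members called was 37 to 50 under DESeq2, both other scalings, no filter, whole counts only and leaving out the interacting proteins. The share of all genes called was 30.4% to 33.3% under DESeq2, both other scalings and no filter. Whole counts only and leaving out the interacting proteins took subsets of the 49 calls and were not new fits. No share over all genes with whole counts is given. At a limit of 0.01 there were 23 called, 19 up-regulated and 4 down-regulated, with 2 of the latter over 2-fold. No share of all genes is given at this limit, for glmTreat or for the counts over 2-fold in this section. Those counts therefore cannot be set against all genes. Scaling on pan-neuronal genes left 11 up-regulated over 2-fold. When the change itself was tested against 2-fold with glmTreat, 2 members passed (*GRIK1* and *grm3*), 2 up-regulated and 0 down-regulated. Leaving out 1 library gave 31 to 47 members called, while 22.5% to 33.2% of all genes were called. There were 26 to 42 members up-regulated and 4 to 7 down-regulated. Over 2-fold there were 14 to 26, with 11 to 23 up-regulated and 2 to 4 down-regulated. Of the 49 called members, 28 were called in all 11 other fits and 0 changed sign. For the named genes, 454 alternative values kept their side of the threshold, 58 lost it, 4 gained it and 0 turned direction.

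The deviations of same-numbered libraries from their group means had correlations of 0.02, -0.07 and 0.04, so no pairing by replicate number was seen. Deviations from means of 3 libraries cannot tell whether same-numbered libraries were collected together. With the replicate block 41 members were called, all of them among the 49, against 31.1% of all genes called. Of the 41, 35 were up-regulated and 6 down-regulated. Wildtype library 1 correlated best with *gas6* mutant library 2 (0.05), so not every library did so with its own number.

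Low counts limit *GRIK1*, *glra4b*, *htr1b*, *htr1ab*, *htr2b* and *chrnb2a*, and the 21 untested members cannot show a change at this depth. No genomic position or sequence was used.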
